A study of Homo sapiens with 6 samples.

Results

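The E2F transcription factors and the retinoblastoma (RB) family were examined in HSC-4, a human cell line established from an oral squamous carcinoma, after treatment with the γ-secretase inhibitor DAPT. The 10 genes were taken by their current symbols from the 58884 genes of the deposited count tables. They were the activators *E2F1*, *E2F2* and *E2F3*, the canonical repressors *E2F4*, *E2F5* and *E2F6*, the atypical repressors *E2F7* and *E2F8*, and the pocket protein genes *RB1* and *RBL1*. The treated group comprised 3 libraries from HSC-4 cells given 50 μM DAPT for 24 h, and the control group comprised 3 libraries from HSC-4 cells without DAPT. The study's methods name DMSO as the vehicle of the controls, whereas the count columns of these libraries carry the letters GM and the labels say only control. Should these cells have had no DMSO, effects of DAPT and of its vehicle cannot be told apart. All 6 libraries came from 1 cell line, and nothing in the labels states that replicates were separate cultures, so the p-values measure the spread between these libraries.

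E2F factors bind promoters of genes for the G1/S transition and DNA synthesis, usually as dimers with a DP protein. In resting and early G1 cells, pocket proteins hold E2Fs and recruit corepressors, and phosphorylation of the pocket proteins by cyclin D and cyclin E kinases releases the activators. *E2F1*, *E2F2*, *E2F7*, *E2F8* and *RBL1* are themselves known as E2F-regulated genes, and E2F7 and E2F8 repress late in S phase without a DP partner. Loss of RB control is a common event in squamous carcinomas, and γ-secretase releases the active intracellular part of Notch receptors.

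Total counts per library ranged from 12276313 to 16317672, and 3 reads, taken as the smallest signal, were 0.184 to 0.244 CPM, the usual scaling of counts to library size. This floor covers counting error only. The 10 squamous epithelial markers summed to 6632 to 6818 CPM in controls and 4573 to 4770 CPM with DAPT, with *KRT5* the most abundant (2701 and 1315 CPM). *KRT14* was low in controls (3.17 CPM) and near the floor with DAPT (0.443 CPM). Of the 10 markers, edgeR called 7 lower and 2 higher, where it called 18.0% and 17.2% of all tested genes (adjusted p under 0.05). *CDH1* (512 and 617 CPM) and *EPCAM* (308 and 372 CPM) were the higher ones, and *PERP* (900 and 921 CPM) was not called. The 5 leukocyte markers summed to at most 0.361 CPM. Control replicate 1 and DAPT replicate 1 each stood apart from the rest of their group. The chi-square statistic per degree of freedom between libraries was 5.30 and 5.38 for pairs with control replicate 1 against 1.58 for the other control pair, and 3.93 and 4.12 for pairs with DAPT replicate 1 against 1.81. In control replicate 1, the 6 fibroblast markers *COL1A1*, *COL1A2*, *COL3A1*, *DCN*, *LUM* and *PDGFRA* summed to 560 CPM, against 57.1 and 57.9 CPM in the other controls and 49.8 to 55.0 CPM with DAPT. *COL1A2* held 3452 reads in control replicate 1 and 3 to 28 reads in the other 5 libraries. The part of this material in the results was not tested. Calls of named genes that were lost without either library are given beside the results. As a measure of the treatment, 6 of 6 tested Notch target genes were lower with DAPT (median log2 fold change -1.73), with *HES5* and *HEY2* under the count filter. Among 15001 tested genes, edgeR's quasi-likelihood test called 2707 lower and 2574 higher at a Benjamini-Hochberg adjusted p under 0.05. Scaling by library size alone moved this split to 2156 lower and 3445 higher.

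With DAPT, 7 of the 10 E2F and RB family genes fell and 0 rose (edgeR's quasi-likelihood test, adjusted p under 0.05), where 18.0% of all tested genes were called lower, 17.2% higher and 35.2% in either direction. At an unadjusted p under 0.05, and in DESeq2 and limma-voom, 0 members were higher as well. The count of lower members was 5 in DESeq2, 4 with library size scaling and 4 without DAPT replicate 2. All 3 activators, both atypical repressors and both pocket protein genes fell, while the 3 canonical repressors were not called. The 10 genes all passed the count filter, and their median log2 fold change was -0.21, against 0.01 over all tested genes. In 7 of the 10 genes, the same 7 that were called lower, every DAPT library lay below every control library. Of all tested genes this held for 22.7%, and groups did not overlap in either direction in 46.3%. Without control replicate 1, 6 of the 10 genes were called lower, the exception being *E2F3*. Without DAPT replicate 1 it was 5, with *E2F3* and *E2F7* lost. In RNA from whole cultures, fewer cells expressing a gene and less RNA per cell cannot be told apart.

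**Figure D1:**
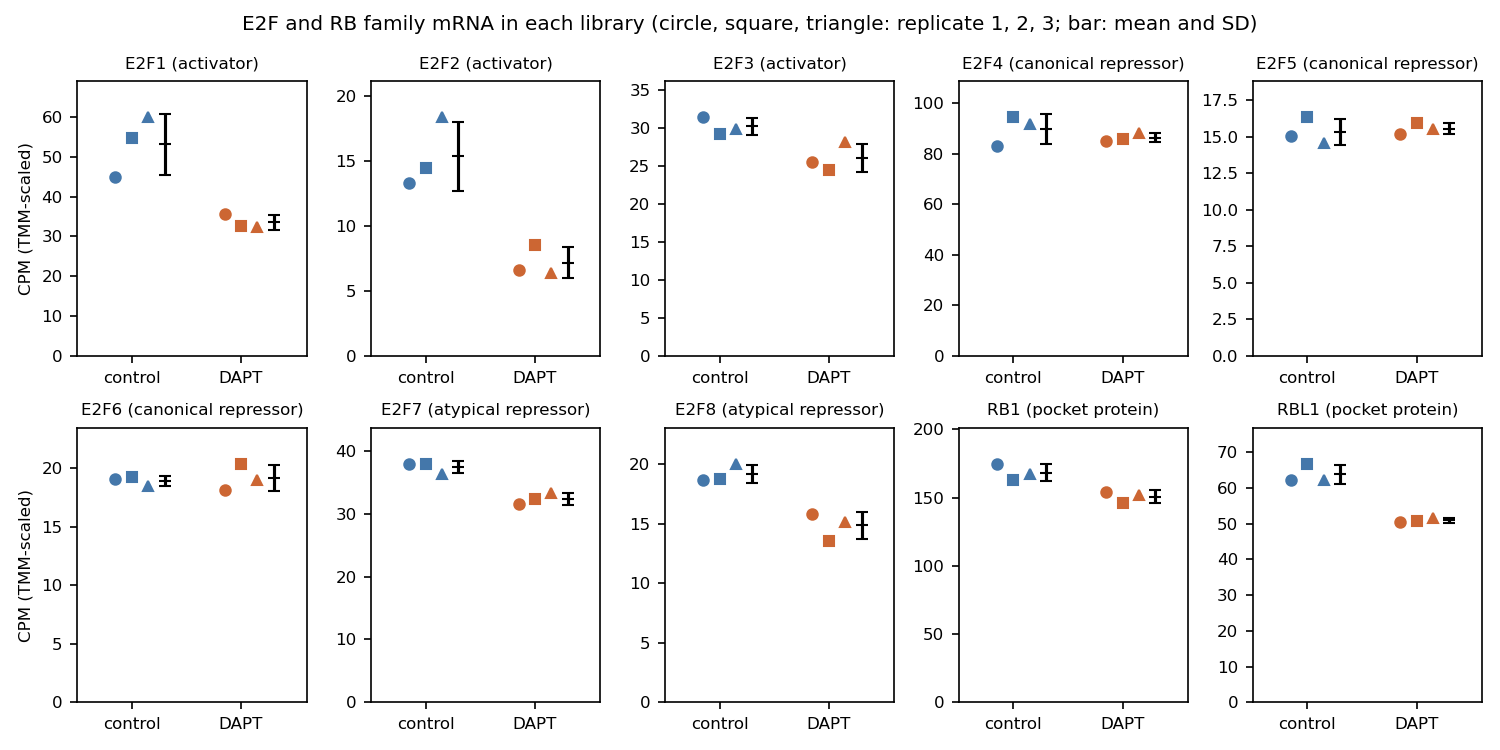
Level of the 10 genes in each library, in CPM on TMM-scaled library sizes (y axes start at 0), with circle, square and triangle for replicates 1, 2 and 3 and a bar for the mean and SD of 3 libraries. The DAPT points lie below all control points in 7 panels, and the groups overlap for *E2F4*, *E2F5* and *E2F6*.

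*E2F2*, an activator of S phase genes, had the greatest fall of the family. Its gene lies on chromosome 1 of GRCh38, from 23506438 to 23531233 on the minus strand. *E2F2* was at 13.3, 14.4 and 18.4 CPM in the controls and at 6.63, 8.56 and 6.38 CPM with DAPT. The highest DAPT library was thus well under the lowest control. The mean was 15.4 ± 2.66 CPM in controls and 7.19 ± 1.19 CPM with DAPT (SD, n = 3 each). On the log2 scale the difference was -1.09 ± 0.14 (standard error), with an adjusted p = 3.83e-06 by edgeR. These values rest on 83 to 222 reads per library. The log2 fold change was -1.18 without control replicate 1 and -1.03 without DAPT replicate 1. The smallest fall with a library left out was -0.95, without control replicate 3.

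*E2F1*, the founding member of the family and the main activator by mRNA level here, lies on chromosome 20 from 33675477 to 33686385 on the minus strand. *E2F1* was at 44.8, 54.7 and 59.9 CPM in the controls and at 35.7, 32.7 and 32.3 CPM with DAPT. Control replicate 1 was the lowest control, and the DAPT libraries lay close together below it. The mean went from 53.2 ± 7.65 to 33.6 ± 1.86 CPM (SD, n = 3 each), which is -0.66 ± 0.09 (standard error) in log2 units (adjusted p = 2.14e-05 by edgeR). Without control replicate 1, the library that also held the fibroblast transcripts, it was -0.76, and without DAPT replicate 1 it was -0.70. The smallest fall with a library left out was -0.57, without control replicate 3. The ratio of *E2F2* to *E2F1*, both per kb of exon, was 0.130 to 0.151 in the controls and 0.0913 to 0.129 with DAPT, and this difference was not tested.

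*E2F3*, the third activator, lies on chromosome 6 from 20401879 to 20493714 on the plus strand. *E2F3* was at 31.4, 29.2 and 29.9 CPM in the controls and at 25.5, 24.5 and 28.1 CPM with DAPT. The groups did not overlap, but the gap between them was small. The log2 fold change was -0.22 ± 0.08 (standard error) at an adjusted p = 0.0349 by edgeR. This call was lost without control replicate 1 (adjusted p = 0.0773), control replicate 3 (0.0564), DAPT replicate 1 (0.0801) or DAPT replicate 2 (0.14), each from edgeR. It was also lost in DESeq2 (adjusted p = 0.0902), with library size scaling (0.0945) and without a count filter (0.0528), with the same sign in all of these fits. The annotated copies *E2F3P1* and *E2F3P2* held at most 2 reads in any library.

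*E2F4* encodes the E2F that carries pocket proteins to promoters in resting cells, and its gene lies on chromosome 16 from 67192155 to 67198918 on the plus strand. *E2F4* was at 83.3, 94.5 and 91.9 CPM in the controls and at 85.0, 85.8 and 88.3 CPM with DAPT. The DAPT libraries fell inside the range of the controls. The log2 fold change was -0.06, with a 95% interval from -0.17 to 0.06 (adjusted p = 0.469, edgeR). *E2F5*, a related repressor that binds mainly RBL2, was at 15.1, 16.3 and 14.6 CPM in the controls and at 15.2, 15.9 and 15.5 CPM with DAPT. The interval for *E2F5* ran from -0.17 to 0.21 around 0.02 (adjusted p = 0.891, edgeR). Exons of opposite-strand genes cover 18.8% of its exonic bases, and the reads were counted by strand. *E2F6*, which represses without pocket proteins as part of a Polycomb complex, was at 19.1, 19.3 and 18.5 CPM in the controls and at 18.2, 20.4 and 19.1 CPM with DAPT. Its log2 fold change was also 0.02, with an interval from -0.16 to 0.19 (adjusted p = 0.898, edgeR). These intervals bound the changes but do not show that the 3 genes were unaltered. *E2F6* has processed copies, of which *E2F6P4* held 26 to 42 reads per library against 223 to 307 for *E2F6*, so its level is uncertain.

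*E2F7* and *E2F8* encode the atypical repressors. *E2F7* (chromosome 12, 77021248 to 77065569, minus strand) was at 37.9, 37.9 and 36.3 CPM in the controls and at 31.5, 32.2 and 33.3 CPM with DAPT. Each group was tight and they were separated, and *E2F7* fell by 0.21 ± 0.07 (standard error) in log2 units (adjusted p = 0.0255 by edgeR). The call on *E2F7* was lost without control replicate 2 (adjusted p = 0.0674), DAPT replicate 1 (0.0738) or DAPT replicate 2 (0.0682) in edgeR, in DESeq2 (0.0625) and with library size scaling (0.0797). *E2F8* (chromosome 11, 19224063 to 19241620, minus strand) was at 18.7, 18.8 and 20.0 CPM in the controls and at 15.8, 13.6 and 15.1 CPM with DAPT. The DAPT libraries all lay below the controls, and *E2F8* changed by -0.36 ± 0.09 (standard error) in log2 units (adjusted p = 0.00368 by edgeR), and the call held with any library left out. Without control replicate 1 the log2 fold changes were -0.20 for *E2F7* and -0.38 for *E2F8*.

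*RBL1* encodes p107, the pocket protein that binds the repressor E2Fs in cycling cells, and lies on chromosome 20 from 36996349 to 37095995 on the minus strand. *RBL1* was at 62.3, 66.7 and 62.3 CPM in the controls and at 50.4, 50.7 and 51.6 CPM with DAPT. The DAPT libraries differed from each other by little and all lay below the controls, at -0.33 ± 0.06 (standard error) in log2 units (adjusted p = 2.29e-04 by edgeR). *RB1*, the retinoblastoma tumor suppressor (chromosome 13, 48303726 to 48599436, plus strand), was at 175, 163 and 167 CPM in the controls and at 154, 146 and 152 CPM with DAPT. This was the smallest change among the called members, at -0.16 ± 0.05 (standard error) in log2 units (adjusted p = 0.0177 by edgeR). The *RB1* call was lost without DAPT replicate 2 (adjusted p = 0.0962, edgeR) and with library size scaling (0.0825). Without control replicate 1 the log2 fold changes were -0.34 for *RBL1* and -0.13 for *RB1*. The third pocket protein gene, *RBL2*, which encodes p130 of resting cells and was not among the 10, was not called (-0.04 ± 0.05 in log2 units, adjusted p = 0.575 by edgeR), with a mean of 120 ± 6.98 CPM in controls and 116 ± 3.13 CPM with DAPT (SD, n = 3 each). The value of *RBL2* was 0.01 in log2 units without control replicate 1, also not called. Per kb of exon, the ratio of *RBL1* to *RBL2* was 0.596 to 0.713 in the controls and 0.517 to 0.544 with DAPT.

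**Figure D2:**
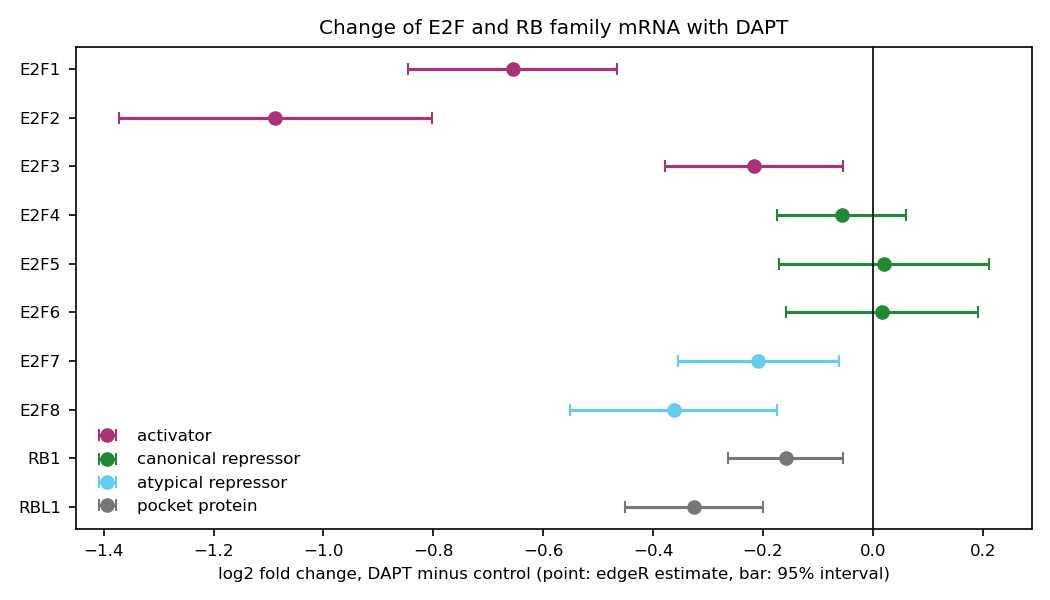
Log2 fold change of each gene (x axis, DAPT minus control) with its 95% interval from the edgeR fit of 6 libraries, coloured by role. *E2F2* (-1.09) and *E2F1* (-0.66) lie farthest from 0, and the intervals of *E2F4*, *E2F5* and *E2F6* include 0.

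The activators were then set against the repressors. The mean log2 fold change was -0.65 over the 3 activators and -0.12 over the 5 repressors, of which the atypical pair had a mean of -0.29 and the canonical genes of -0.01. The difference between activators and repressors was -0.53. With a library left out it ranged from -0.58 (without control replicate 1) to -0.46 (without control replicate 3), and it was -0.53 without DAPT replicate 1. The value of *E2F3* (-0.22) was near that of *E2F7* (-0.21) and smaller in size than that of *E2F8* (-0.36), so the difference rests mainly on *E2F1* and *E2F2*. In single libraries, the mean log2 CPM of the activators minus that of the repressors was -0.07, -0.03 and 0.18 in the controls and -0.51, -0.46 and -0.56 with DAPT. The groups did not overlap in this difference. No p-value is given because the genes were chosen with results of these data known.

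Levels of different genes were compared as CPM per kb of exon. The length was that of all annotated exons of a gene merged, whichever transcripts the cells expressed. Order, shares and ratios between genes are therefore approximate, and the SD between libraries does not cover this. In controls the order was *RB1* (26.1), *E2F4* (25.0), *E2F1* (19.8), *RBL1* (10.7), *E2F7* (5.94), *E2F3* (5.81), *E2F6* (4.66), *E2F8* (4.64), *E2F2* (2.82) and *E2F5* (2.55 CPM per kb). The neighbours *RB1* and *E2F4*, *E2F7* and *E2F3*, *E2F6* and *E2F8*, and *E2F2* and *E2F5* did not differ beyond their SD. With DAPT, *E2F4* was at 24.0 and *RB1* at 23.4 CPM per kb, again within their SD, followed by *E2F1* at 12.5 CPM per kb. *E2F2*, at 1.32 CPM per kb, was then below *E2F5*, at 2.59 CPM per kb, and lowest of the 10. The summed level of *E2F1* to *E2F8* was 71.2 ± 4.50 CPM per kb in controls and 58.9 ± 0.506 CPM per kb with DAPT (SD, n = 3 each). Activators made up 38.1%, 39.3% and 42.1% of this sum in the controls and 32.9%, 31.6% and 31.3% with DAPT. *E2F4* alone made up 35.1% in controls and 40.8% with DAPT, *E2F1* 27.7% and 21.2%, and *E2F2* 3.95% and 2.24% (means of 3). Without control replicate 1 and DAPT replicate 1, the mean share of the activators was 40.7% in controls and 31.5% with DAPT. Canonical repressors made up 45.3% ± 1.43 in controls and 53.2% ± 1.03 with DAPT, and atypical repressors 14.9% ± 0.924 and 14.8% ± 0.369 (SD, n = 3 each). *E2F1* was at 0.720 to 0.871 times the level of *E2F4* in the controls and at 0.490 to 0.562 times with DAPT.

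**Figure D3:**
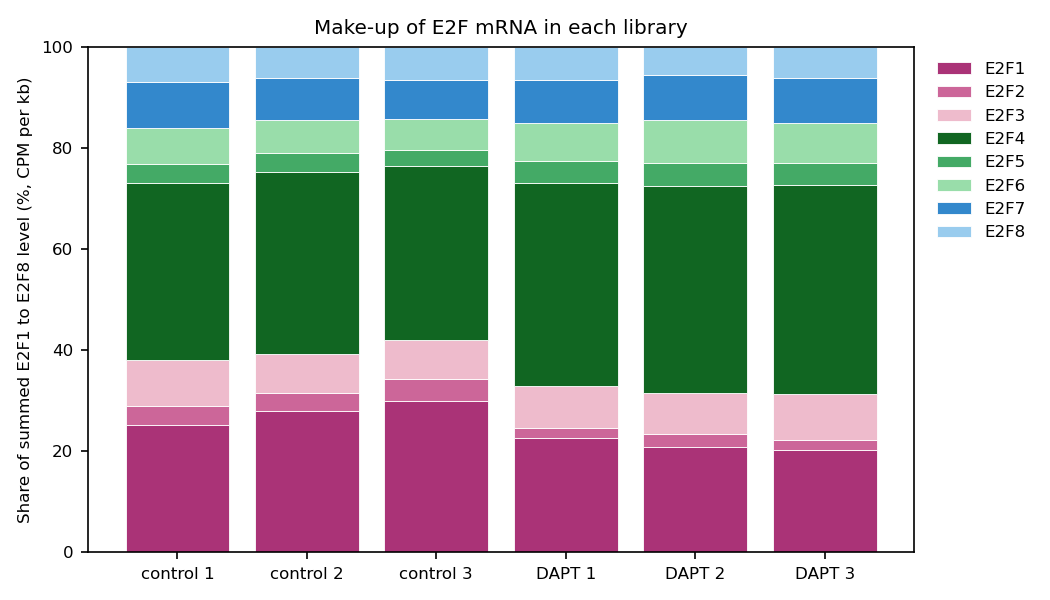
Share of each E2F gene in the summed E2F mRNA level of a library (y axis, percent of CPM per kb of exon), with 1 bar for each library. The activators, at the bottom of the bars, take 38.1% to 42.1% in controls and 31.3% to 32.9% with DAPT, and *E2F4* takes a larger share with DAPT.

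The promoters of these genes were searched for letters known as E2F, Notch and cell cycle motifs. RefSeq promoters (GRCh38.p14, 250 bases before to 50 after the start) were matched at the gene start for 7 genes, namely *E2F1*, *E2F2*, *E2F3*, *E2F4*, *E2F6*, *E2F7* and *RBL1*. The entry of *RB1* starts inside the gene and was not used, and *E2F5* and *E2F8* have no entry in the table. *E2F3* has 2 entries, and only the 1 at the gene start was searched. The E2F motif TTTNNCGC, on either strand, occurred in 4 of the 7 promoters and in 6.89% of all 35116 promoters of this length. Counted by gene, it occurred for 12.7% of tested genes with an entry. *E2F1*, *E2F2* and *RBL1* were already known as E2F-regulated genes. The count in this family therefore describes the choice of genes and not the response to DAPT. There were 4 matches for *E2F1*, 3 for *E2F2*, 2 for *RBL1* and 1 for *E2F3*, some of them overlapping, and 2 or more occurred in 0.558% of all promoters. Promoters of *E2F4*, *E2F6* and *E2F7* held none of these letters. Of these genes *E2F7* was called lower (-0.21 in log2 units), and *E2F4* and *E2F6* were not called. A link between matches and the fall was not tested. The stretches of 130 bases before the start are shown for the 4 genes with matches and for *E2F4* as the abundant repressor that was not called, with E2F matches in capitals, 5′ to 3′ on the strand of the gene.
E2F1, chr20:33686386-33686515, minus strand: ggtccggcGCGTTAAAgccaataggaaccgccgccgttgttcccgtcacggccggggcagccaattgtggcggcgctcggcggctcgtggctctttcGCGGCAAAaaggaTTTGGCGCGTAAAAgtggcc
E2F2, chr1:23531234-23531363, minus strand: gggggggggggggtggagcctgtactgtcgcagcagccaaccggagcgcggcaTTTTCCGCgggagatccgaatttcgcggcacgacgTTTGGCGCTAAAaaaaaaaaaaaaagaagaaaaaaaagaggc
E2F3, chr6:20401749-20401878, plus strand: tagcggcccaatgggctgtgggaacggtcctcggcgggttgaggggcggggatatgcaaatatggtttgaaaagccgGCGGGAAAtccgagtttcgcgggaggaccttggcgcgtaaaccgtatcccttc
RBL1, chr20:37095998-37096127, minus strand: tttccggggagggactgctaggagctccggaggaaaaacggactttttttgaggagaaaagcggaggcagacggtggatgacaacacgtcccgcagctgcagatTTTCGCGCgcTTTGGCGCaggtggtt
E2F4, chr16:67192025-67192154, plus strand: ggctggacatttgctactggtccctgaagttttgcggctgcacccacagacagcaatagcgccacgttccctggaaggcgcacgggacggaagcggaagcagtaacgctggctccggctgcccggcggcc
Positions are counted back from the transcription start. In *E2F1*, 3 matches began at -33, -20 and -14 and the fourth at -122. In *E2F2* they began at -77, -42 and -38, in *RBL1* at -26 and -16, and in *E2F3* at -53. The motif GTGGGAA of RBPJ, the DNA-binding partner of Notch, occurred on the forward strand of the *E2F3* promoter at -113, and in 6.25% of all promoters. The CHR motif TTTGAA of late cell cycle genes also occurred once, in *E2F3*, and in 15.2% of all promoters. The other 6 promoters of the family held neither of these motifs. Among tested genes with an entry, an E2F match occurred in 12.9% of 2065 genes called lower, 12.7% of 2034 called higher and 12.6% of 6974 not called. These are matches of letters, not binding sites.

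**Figure D4:**
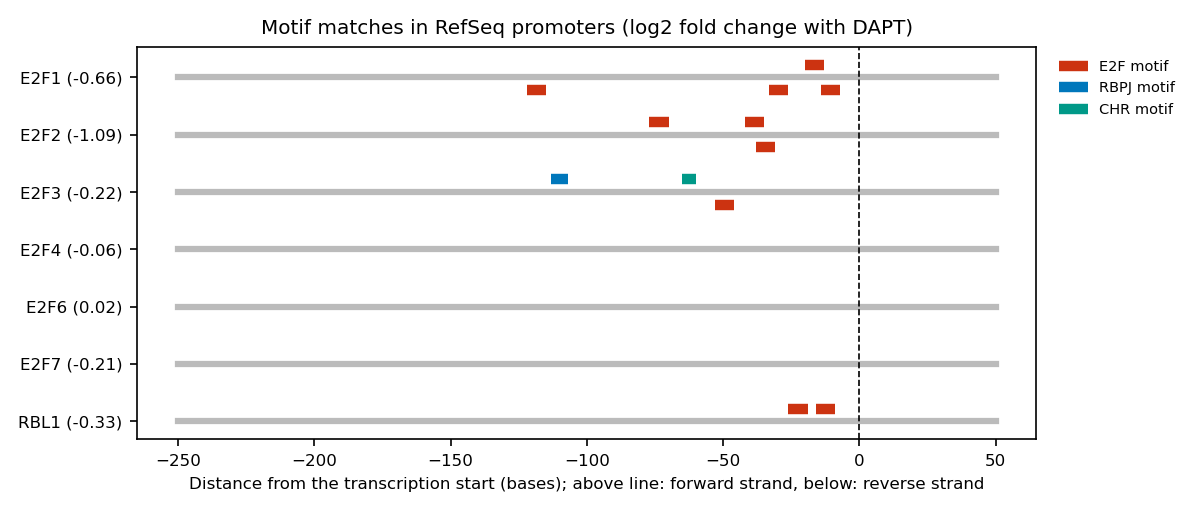
Matches of the E2F, RBPJ and CHR motifs in 7 RefSeq promoters (x axis, bases from the transcription start, forward strand above and reverse strand below each line), with the log2 fold change of the gene in brackets. E2F matches lie between -122 and the start of *E2F1*, *E2F2*, *E2F3* and *RBL1*, and the lines of *E2F4*, *E2F6* and *E2F7* hold no match.

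Of 43 known G1/S target genes of the E2Fs, all tested, 42 fell and 0 rose with DAPT (edgeR, adjusted p under 0.05), with all 43 log2 fold changes below 0 and a median of -0.54. Of all tested genes, edgeR called 18.0% lower and 17.2% higher. DESeq2 and limma-voom also called 42 genes of the list lower. The list was written from general knowledge with earlier results of these data known. The largest falls were those of the thymidine kinase *TK1* (-0.83, from 115 ± 11.8 to 64.8 ± 1.19 CPM) and the MYC- and E2F-responsive *CDCA7* (-0.81), and the methyltransferase *EZH2* (-0.25, all log2 fold changes) was among the called genes with the smallest falls. *FBXO5*, which encodes an inhibitor of the anaphase-promoting complex, was not called (-0.09, adjusted p = 0.314, edgeR). An E2F match occurred in the promoters of 21 of 36 genes of this list with an entry (58.3%), against 12.7% of tested genes. The list was made of genes known as E2F targets, so this share describes the list and not the response to DAPT. Among 26 G2/M genes known as targets of the DREAM complex, 22 fell and 0 rose, against the same background of all tested genes. All 26 log2 fold changes were below 0, with a median of -0.27. An E2F match occurred in 3 of 21 of these genes with an entry (14.3%). The spindle gene *PRC1* (-0.50) and the mitotic kinase *CDK1* (-0.47) had the largest falls, and the topoisomerase *TOP2A* (-0.17) and the kinase *AURKA* (-0.12) the smallest called ones. Since 57.6% of the *PRC1* exons are shared with a gene in the same orientation, its value is uncertain, and its call was lost without DAPT replicate 1. Without control replicate 1, 41 G1/S and 22 G2/M genes were lower, and without DAPT replicate 1, 42 and 21. The G2/M count was less stable than the G1/S count. It was 18 without DAPT replicate 3, 20 in DESeq2, 19 with library size scaling and 18 at an adjusted p under 0.01.

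Among the regulators of the RB family, 6 of 8 cyclin and kinase genes fell, namely *CCND1* (-0.67), *CCNE1* (-0.51), *CDK4* (-0.49), *CCNE2* (-0.46), *CCND3* (-0.38) and *CDK2* (-0.34), while *CCND2* rose (0.30, log2 fold changes with edgeR adjusted p under 0.05). *CDK6*, the partner kinase of CDK4, was not called. *CCNE1* and *CCNE2* were also among the G1/S target genes, so the counts of these lists are not separate. Of all tested genes, 18.0% were lower and 17.2% higher. Of 6 tested genes for CDK inhibitors, which keep pocket proteins unphosphorylated, *CDKN1B* (0.32) and *CDKN1A* (0.29) rose, *CDKN2B* fell (-0.18) and 3 were not called. These counts of inhibitors are too small to read against that background. Genes for turnover of E2F proteins fell in 3 of 4 cases, with *CCNF*, whose product marks activator E2Fs for destruction, at -0.33, *SKP2* at -0.30 and *CDC20* at -0.30. Of the genes named here as changed, *CDKN2B* alone lost its call without control replicate 1, and none did without DAPT replicate 1.

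The dimer partner *TFDP1* fell (-0.25, from 244 ± 10.4 to 206 ± 7.63 CPM, SD, n = 3 each, adjusted p = 6.14e-04, edgeR), whereas *TFDP2* was not called (0.03) and *TFDP3* was under the count filter. The MuvB core joins E2F4 and a pocket protein in the DREAM complex and later binds MYBL2 and FOXM1 in their place. In this list *MYBL2* (-0.59), *LIN9* (-0.34) and *RBBP4* (-0.16) fell, *LIN54* rose (0.23), and *LIN37*, *LIN52* and *FOXM1* were not called. Among 10 Polycomb partners of E2F6, 3 rose and 1 fell, with *RNF2* (0.24), *RYBP* (0.23) and *RING1* (0.21) higher, *CBX3* lower (-0.29) and 6 not called, where 17.2% of all tested genes were higher and 18.0% lower. These small counts are near that background. Of 13 corepressor genes of RB, 5 fell and 3 rose, against the same background, among them the histone methyltransferase *SUV39H1* (-0.47), the deacetylase *HDAC2* (-0.28) and the RB-binding *ARID4A* (0.22) and *ARID4B* (0.19). *RBBP4* was counted in both the MuvB list and the corepressor list. For *ARID4B*, 12.9% of the exons are shared with a gene in the same orientation, as are 26.7% for *LIN37* and 13.9% for *CCND2*, which leaves these values uncertain. The medians were -0.12 for the MuvB list, 0.09 for the Polycomb list and -0.08 for the corepressors, against 0.01 for all tested genes. Among the genes of these lists named here as changed, *LIN54* lost its call without control replicate 1. Without DAPT replicate 1, *LIN54*, *RBBP4*, *RNF2*, *ARID4A* and *ARID4B* lost theirs. Of the 13 corepressors, 5 were lower and 4 higher without control replicate 1, and 5 and 1 without DAPT replicate 1. In the second fit the genes called lower were not the same 5, since some lost and others gained a call.

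**Figure D5:**
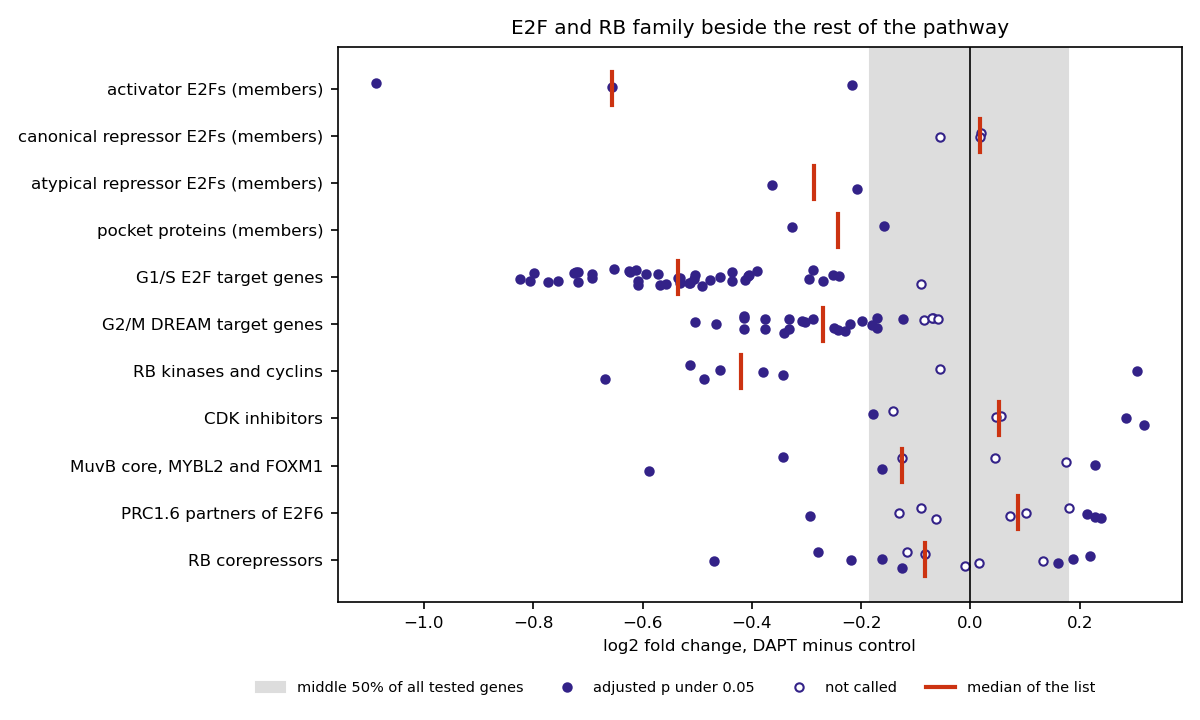
Log2 fold changes (x axis, DAPT minus control) of the members by role and of 7 lists of the pathway, with filled points for genes at an adjusted p under 0.05, a red line for the median of a list and a grey band for the middle 50% of all tested genes. Nearly all G1/S target genes lie left of the band with a median of -0.54, and the canonical repressors lie inside it.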

How the data were processed

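RNA-seq counts of 3 DAPT and 3 control libraries of HSC-4 cells were analysed. Per the file headers and the study's methods, the authors used Trim Galore for the single-end reads, aligned these by HISAT2 on GRCh38 and assigned them to exons by strand with featureCounts 1.6.3 and Ensembl annotation 96. The deposited values are raw counts per gene, without normalization. By the default of that tool, reads at several places or in several genes were not counted. The submitters' processing notes also list HTSeq and DESeq2, with no role given. Symbols were matched by identifier for 58472 of 58884 genes.

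Counts were filtered with filterByExpr by group (minimum count 10), TMM-scaled (factors 0.980 to 1.02) and tested with the robust quasi-likelihood F test of edgeR 4.0.16 (R 4.3.3), with Benjamini-Hochberg adjustment over 15001 genes. Standard errors come from the test statistic, and log2 CPM used a prior count of 1. The floor was set at 3 counts per library, and total counts limit precision for genes with few reads. The procedure was tested on simulated data. No libraries of a group agreed within sampling noise.

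The 10 members and all lists were chosen with earlier results of these data known, and the lists were written from general knowledge. The text names all members and called genes of lists up to 10 genes, apart from the Notch target and marker lists. It also names the 2 most extreme called genes on either side of longer lists, and the 5 genes nearest in pattern to *E2F1* and to *E2F2*. A gene that this rule names is not reported here. *FBXO5*, and genes named as not called, were added after their values were seen. Alternatives were DESeq2 1.42.0, limma-voom (limma 3.58.1), RLE, upper quartile and library size scaling, 2 other count filters, a fit that was not robust, a replicate block, each library left out in turn, and an adjusted p under 0.01. Promoter entries were kept where the start lay within 100 bases of the gene start. Protein sequences were not used here.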

Additional observations from a re-analysis of the deposited data

How the results depend on the processing

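Over 15 alternative settings, 133 of 150 recomputed log2 fold changes of the members kept their direction and their side of the threshold, 14 lost the call and 0 gained one. *E2F1*, *E2F2*, *E2F8* and *RBL1* kept the call in all 15, with ranges of -0.76 to -0.57, -1.23 to -0.95, -0.41 to -0.30 and -0.35 to -0.28. The other 3 changed sign, all of them values near 0 that were not called in any setting: with a library left out, *E2F5* ranged from -0.0166 (without control replicate 3) to 0.0628, and *E2F6* from -0.0272 (without DAPT replicate 2) to 0.0576, with -0.00521 without control replicate 3. The count of members called lower, 7, was 4 with library size scaling and 4 at an adjusted p under 0.01, the latter from a stricter threshold on the same fit, and it was between 4 and 7 over the fits that each dropped 1 library. Without DAPT replicate 2, where it was 4, *E2F3*, *E2F7* and *RB1* lost their calls, and the cause was not tested. DESeq2 called 5 and the fit without a count filter 6. Over all tested genes, 1516 were higher at an adjusted p under 0.01, against 2574. Of 117 tested genes of the pathway lists, 81 were lower and 10 higher, where 18.0% of all tested genes were lower and 17.2% higher. The count of higher genes in the lists was 5 at an adjusted p under 0.01. It was 6 to 10 with a library left out (6 without control replicate 3 and 6 without DAPT replicate 1). A replicate block for the shared numbers left 7 members lower and changed no member's call. Deviations of same-numbered libraries correlated at 0.0441, 0.131 and 0.0263 over 7500 genes, and control replicate 3 correlated best with DAPT replicate 1 (0.0532), so the numbers were not taken as pairs. Low read numbers limit *E2F2* most.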

Other observations

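The genes whose 6 library values were nearest to those of *E2F1*, by the root mean square difference of centred log2 CPM, were *ISYNA1* (0.0518), *NME4* (0.0535), *UHRF1* (0.0535), *ANXA10* (0.0604) and *MYBL2* (0.0622). *UHRF1*, a partner of maintenance DNA methylation, and *MYBL2*, a transcription factor of late cell cycle genes, are known E2F targets, while *ISYNA1* encodes the synthase of inositol phosphate and *NME4* a mitochondrial nucleoside diphosphate kinase. Their log2 fold changes were -0.66, -0.62, -0.69, -0.59 and -0.59 in the same order. The genes nearest to *E2F2* were *CIART* (0.0635), *ATP6V1FNB* (0.0846), *PCOLCE2* (0.0939), *KCNJ12* (0.0947) and *TEPP* (0.123). Their log2 fold changes ran from -1.33 to -1.01, with standard errors from 0.17 (*PCOLCE2*) to 0.42 (*CIART*), against 0.14 for *E2F2*. The genes named here are the nearest of 15001 tested genes over 6 libraries in 2 groups, so likeness in the treatment difference alone brings genes close.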
